A study of Homo sapiens with 27 samples.

Results

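The SLC25 genes encode the mitochondrial carrier family. They were followed here in the MYCN-amplified human neuroblastoma line SK-N-BE(2)c, kept in hypoxia with PP242 or its solvent DMSO. Members were the genes whose symbol in the probe annotation starts with SLC25A and a digit and that had a probe in the non-normalised intensity table, and each gene was represented by its probe with the highest mean over the 27 arrays. This gave 44 genes of the 17055 in the annotation, 42 of them protein coding and 2 of them pseudogenes (SLC25A3P1 and SLC25A51P4). Of the 44, 35 were above background on at least 3 arrays and entered the tests, as did 12610 genes in all. The rule takes members by symbol and not by how they changed.

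SLC25 carriers sit in the inner mitochondrial membrane, which is otherwise closed to most metabolites, and each moves a particular substrate between cytosol and matrix. They bring in ADP, phosphate, fatty acids as acylcarnitines, amino acids, coenzyme A, glutathione and iron, and they let out ATP, citrate and aspartate for synthesis in the cytosol. In hypoxia the respiratory chain has less oxygen to work with, and mTOR, the kinase that PP242 blocks by competing with ATP, drives growth and mitochondrial biosynthesis. Transcript levels alone do not show how much a carrier transports.

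Cells received PP242 in hypoxia for 24, 48 or 72 h (4 arrays each). They were set against cells with DMSO in hypoxia for 24 h (3 arrays), 48 h or 72 h (4 arrays each), and a 0 h control (4 arrays) was the baseline. No label gives the control a solvent or an oxygen condition, and hypoxia, solvent and culture time cannot be told apart in comparisons with it. All 7 groups come from this single line, the labels do not give the PP242 dose, and whether arrays of a group are separate cultures is not stated. The p-values therefore reflect only how these samples vary, which may be technical. Total RNA was hybridised to Illumina bead arrays with 1 sample per array.

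Median deposited intensities per array ran from 98 to 113, and 20729 to 22976 of the 48107 probes on an array were above its background. Markers of adrenergic neuroblastoma were present: 10 of 12 listed genes were in the annotation, and all 10, MYCN and CHGA among them, were above background on all 27 arrays. Of 20 listed markers of Schwann, immune, endothelial, blood and stromal cells, 16 were in the annotation and 9 were above background on at least 3 arrays, 2 of them (CD14 and ACTA2) on all 27. The stromal markers DCN and LUM were above background on 22 and 21 arrays, and CDH5, VWF and HBA2 on 0. Deposited intensities were summed over the 16 with no background correction or normalisation. ACTA2, DCN, CD14 and LUM had means of 231, 211, 143 and 133. The others had means from 94.6 to 105, within the range of the arrays' background modes (92.4 to 106), so much of the sum is background. The summed intensity of the 16 ran from 1692 to 1786 with PP242 against 1912 to 2118 with DMSO at 24 h, from 1515 to 1766 against 2079 to 2214 at 48 h and from 1518 to 1854 against 2030 to 2187 at 72 h. It ran from 1793 to 2355 in the control. Its part in the PP242 results below was not tested. Fewer cells of a type and less RNA per cell cannot be told apart in such samples.

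Levels below are background-corrected, quantile-normalised log2 intensities. They compare samples for one gene and do not rank genes against each other, since probes differ in brightness. A change is a difference of group means on that log2 scale, with its moderated standard error (SE), and it is called where limma's p, adjusted over all 12610 genes by the Benjamini-Hochberg method, was under 0.05. Of the 35 tested members, 23 were above background on all 27 arrays and 12 on fewer. The 9 members not tested were SLC25A2, SLC25A3P1, SLC25A21, SLC25A27, SLC25A30, SLC25A33, SLC25A35, SLC25A41 and SLC25A52, which were above background on 2 arrays at most.

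The sequence just before the start of transcription is shown for the pair of members with the largest called rises in hypoxia at 72 h, SLC25A36 and SLC25A42, and for SLC25A15, one of the largest falls. Each line holds the 250 bases before the RefSeq start on GRCh38.p14, read 5′ to 3′. Capitals mark matches on either strand to ACGTG or GCGTG, the core of the hypoxia response element, to the E-box CACGTG, or to TGATGNAA, a core of CEBP-ATF sites.
SLC25A36, chr3:140941586-140941835, plus strand: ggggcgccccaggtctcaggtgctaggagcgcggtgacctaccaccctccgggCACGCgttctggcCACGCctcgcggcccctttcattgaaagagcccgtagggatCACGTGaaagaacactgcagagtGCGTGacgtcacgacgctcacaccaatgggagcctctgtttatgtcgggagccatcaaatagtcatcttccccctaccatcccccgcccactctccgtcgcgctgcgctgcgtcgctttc
SLC25A42, chr19:19063744-19063993, plus strand: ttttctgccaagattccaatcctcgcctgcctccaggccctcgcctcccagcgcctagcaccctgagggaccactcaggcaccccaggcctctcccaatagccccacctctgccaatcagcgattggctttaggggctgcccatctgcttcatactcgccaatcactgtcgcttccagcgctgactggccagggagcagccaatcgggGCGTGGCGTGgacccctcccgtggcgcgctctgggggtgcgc
SLC25A15, chr13:40789361-40789610, plus strand: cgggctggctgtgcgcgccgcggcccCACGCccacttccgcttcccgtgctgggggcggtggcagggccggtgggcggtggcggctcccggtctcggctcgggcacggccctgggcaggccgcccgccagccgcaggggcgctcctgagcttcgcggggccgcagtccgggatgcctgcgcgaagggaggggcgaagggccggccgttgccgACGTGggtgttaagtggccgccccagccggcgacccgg

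These promoters differ in the marked letters. That of SLC25A36 holds 3 GCGTG and 1 CACGTG, which reads the same on both strands and so also counts as 2 ACGTG. SLC25A42 holds 2 GCGTG, and SLC25A15 holds 1 GCGTG and 1 ACGTG. A promoter was found for 31 of the 35 tested members. At least 1 GCGTG was present for 4 of the 4 members that rose at 72 h of hypoxia, 10 of the 11 that fell and 10 of the 16 not called, against 31.9% of all 27305 promoters in the table. ACGTG was present for 2 of 4, 3 of 11 and 4 of 16, against 18.7% of all promoters, and CACGTG for 2 of 4, 0 of 11 and 3 of 16, against 6.49%. TGATGNAA was present for 0 of 4, 1 of 11 and 0 of 16, against 3.19%. G and C made up from 37.6% (SLC25A26) to 82.0% (SLC25A10) of the member promoters, and 62.8%, 65.2% and 79.6% of those of SLC25A36, SLC25A42 and SLC25A15. The share over all promoters was not matched for this or for expression, so no enrichment can be read from these counts. A match is only a match of letters, not a bound site.

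Across the 7 groups 17 of the 35 members passed (48.6%, against 34.4% of all genes tested). Among them were SLC25A47 and SLC25A34, whose p-values are no support for a difference, as given further on. SLC25A34 is also counted below with PP242 and with DMSO against the control at 48 and 72 h. All genes were counted under the same filter, so such genes may be in either share. In comparisons of 2 groups 16 were called at least once and 19 never, in the fit that does not pair arrays by sample number. PP242 against DMSO at 24 h called 8 members (22.9%, against 21.8% of all genes), of which 1 was higher (10.4% of all genes were) and 7 lower (11.4%). It called 5 at 48 h (14.3%, against 10.3%), with 2 higher (4.45% of all genes) and 3 lower (5.84%). At 72 h it called 6 (17.1%, against 8.91%), with 2 higher (3.41% of all genes) and 4 lower (5.5%). With the sample number as a block, which pairs the arrays, 15 members were called at 24 h (42.9%, against 30% of all genes). Over the 7 groups the block called 24 (68.6%, against 50%). For PP242 at 48 h it called 6 members (17.1%) and 2516 of the 12610 genes. That share of members was below the share of all genes, the reverse of the order without the block. For PP242 at 72 h the block called 8 members (22.9%) and 2164 of the 12610 genes, a smaller share than among members. DMSO against the control called 0 members at 24 h by limma, against 1.03% of all genes (0.841% higher, 0.19% lower), and 3 members had an unadjusted p under 0.05. It called 11 at 48 h (31.4%, against 13.9%), with 3 higher (6.76% of all genes) and 8 lower (7.13%). At 72 h it called 15 (42.9%, against 24.7%), with 4 higher (11.3% of all genes) and 11 lower (13.4%). All 11 called at 48 h were also called at 72 h, and these comparisons share the control arrays. With the block, DMSO against the control called 1 member at 24 h (2.86%) and 363 of the 12610 genes. It called 13 at 48 h (37.1%) and 2995 genes, and 17 at 72 h (48.6%) and 4362 genes. Some of the 19 members never called without the block were called with it, among them SLC25A37, SLC25A43, SLC25A4, SLC25A5 and SLC25A3.

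**Figure D1:**
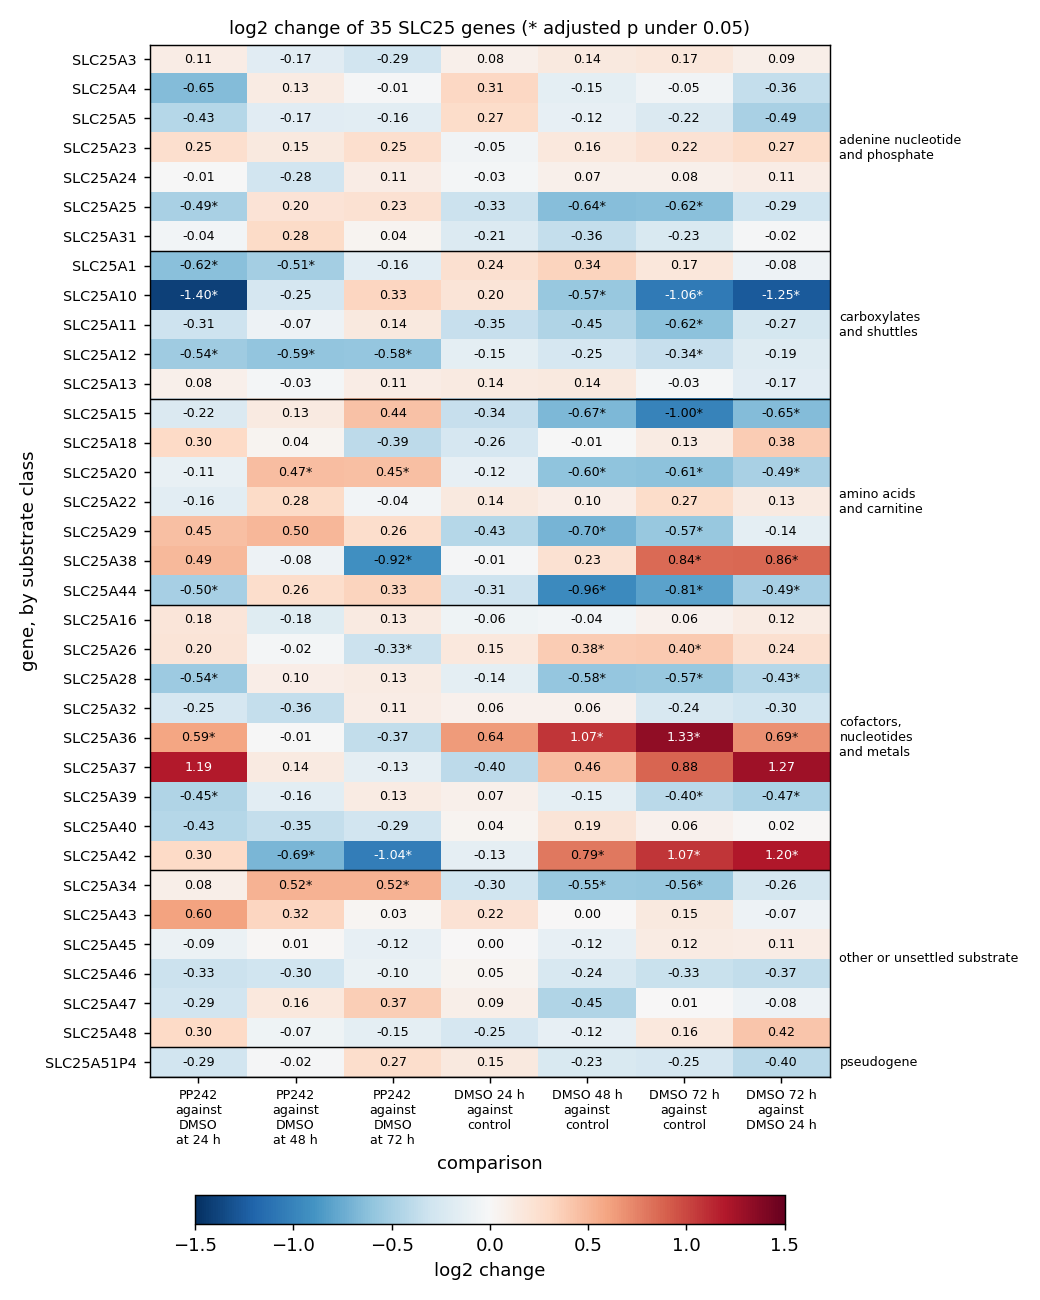
Log2 change of each of the 35 tested SLC25 genes (rows, by substrate class) in 7 comparisons (columns). Red is higher in the first-named group and blue lower, and an asterisk marks an adjusted p under 0.05. SLC25A42 and SLC25A36 stand out in red in the DMSO 48 h and 72 h columns, and SLC25A10 in blue with PP242 at 24 h (-1.40) and with DMSO at 72 h (-1.06).

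In these comparisons the arrays of the 2 groups did not overlap for any called member, except SLC25A12 and SLC25A38 between DMSO 72 h and the control. The share without overlap among all called genes was not counted, so this adds nothing to the calls, here or for single members below. The PP242 count was 5 at 24 h without DMSO array 1 or PP242 array 3, 3 at 48 h without DMSO array 1 or PP242 array 1 and 3 at 72 h without PP242 array 1 or 4. With arrays scaled to one median in place of quantile normalisation, the calls with PP242 were 0 higher and 9 lower at 24 h and 1 higher and 3 lower at 48 h. Here and below, counts under that scaling are given without the share of all genes. Whether they differ from all genes cannot be read from them. The median change of the members, set against that of all genes, was -0.11 against 0.0024 with PP242 at 24 h, -0.02 against -0.0062 at 48 h and 0.04 against -0.0028 at 72 h. For DMSO against the control it was -0.12 against -0.02 at 48 h and -0.03 against -0.0098 at 72 h.

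Of the 5 carriers of carboxylates and of the malate-aspartate shuttle, 3 fell and 0 rose with PP242 at 24 h, where 11.4% of all genes were called lower and 10.4% higher. The other two, SLC25A11 and SLC25A13, had changes of -0.31 and 0.08. SLC25A10, the dicarboxylate carrier, which exchanges malate or succinate for phosphate, had the largest change of any called member between 2 groups. At 24 h it read 6.31, 6.63, 6.18 and 6.39 with PP242, against 7.87, 7.99 and 7.48 with DMSO. The lowest DMSO array stood well above the highest PP242 array, and the level fell by 1.40 (SE 0.19, 0.38-fold, adjusted p = 5.54e-06). The 72 h arrays read 6.83, 6.96, 7.30 and 6.32 with PP242, 6.53, 6.41, 6.63 and 6.53 with DMSO and 7.78, 7.93, 7.30 and 7.32 in the control. There the PP242 arrays spanned the DMSO arrays (0.33, SE 0.18, adjusted p = 0.315), and every DMSO array lay below every control array.

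In hypoxia with DMSO, SLC25A10 stood at a mean of 7.58 ± 0.32 in the control (SD, n = 4), 7.78 ± 0.27 at 24 h (n = 3), 7.01 ± 0.17 at 48 h and 6.53 ± 0.09 at 72 h (n = 4 each). The difference from the control was 0.20 (SE 0.19, adjusted p = 0.692) at 24 h, -0.57 (SE 0.18, adjusted p = 0.0325) at 48 h and -1.06 (SE 0.18, adjusted p = 5.88e-05) at 72 h. Between 24 and 72 h it fell by 1.25 (SE 0.19, adjusted p = 4.36e-05). The call at 48 h was lost without control array 1 (adjusted p = 0.0925) or 2 (0.116) or DMSO array 1 (0.0577), 2 (0.0987) or 4 (0.0638), and with only the 2 groups in the fit (0.0667). The fall at 72 h kept its call without any single array.

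SLC25A12, or aralar, the aspartate-glutamate carrier prominent in nerve cells, was the only member called lower with PP242 at all 3 times. At 24 h it read 5.67, 5.84, 5.64 and 5.44 with PP242, against 6.24, 6.05 and 6.26 with DMSO. At 48 h it read 5.47, 5.67, 5.48 and 5.35 with PP242, against 5.88, 6.14, 6.27 and 6.05 with DMSO. At 72 h it read 5.43, 5.59, 5.25 and 5.38 with PP242, against 6.12, 5.85, 6.17 and 5.82 with DMSO. The groups did not overlap at any time, and the falls were alike in size: 0.54 (SE 0.14, adjusted p = 0.00486), 0.59 (SE 0.13, adjusted p = 0.00235) and 0.58 (SE 0.13, adjusted p = 0.00291) on the log2 scale. At 72 h 1 of the 4 PP242 arrays was not above background. The probe was dim, with a mean intensity of 130 against background modes of 92.4 to 106. The falls may therefore be understated, and their like sizes cannot be read as equal effects. Its paralog SLC25A13, citrin, the other aspartate-glutamate carrier, had changes of 0.08, -0.03 and 0.11 with PP242, with adjusted p between 0.588 and 0.916.

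SLC25A12 also stood lower in DMSO 72 h cells than in the control (-0.34, SE 0.13, adjusted p = 0.0497), with overlapping arrays. That call was lost without control array 1 (adjusted p = 0.159), 3 (0.125) or 4 (0.0752) and without DMSO array 2 (0.14) or 4 (0.145), and also with no filter on dim probes (0.0723), an intensity trend (0.0516) or only the 2 groups (0.144).

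SLC25A1, the citrate carrier, which supplies citrate to the cytosol for lipid synthesis, fell with PP242 at 24 and 48 h. At 24 h it read 6.59, 6.76, 6.69 and 6.77 with PP242, against 7.26, 7.37 and 7.35 with DMSO, a fall of 0.62 (SE 0.15, adjusted p = 0.00337). At 48 h it read 6.46, 7.04, 7.12 and 7.01 with PP242, against 7.32, 7.36, 7.48 and 7.52 with DMSO, a fall of 0.51 (SE 0.14, adjusted p = 0.0168). The groups were apart at both times, though PP242 array 1 at 48 h was far below its 3 companions, and without it the adjusted p was 0.105. With only the 2 groups it was 0.0707. At 72 h the change was -0.16 (SE 0.14, adjusted p = 0.598). SLC25A1 was not called in hypoxia, with changes of 0.24, 0.34 and 0.17 from the control at 24, 48 and 72 h.

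SLC25A11, the oxoglutarate-malate carrier of the same shuttle, was called once. It read 6.85, 6.75, 6.87 and 6.96 in DMSO 72 h cells, against 7.16, 7.22, 7.59 and 7.93 in the control. Every DMSO array was below every control array (-0.62, SE 0.15, adjusted p = 0.00321). At 48 h the change was -0.45 (SE 0.15, adjusted p = 0.0510, and 0.00925 with the number block), and with PP242 at 24 h it was -0.31 (adjusted p = 0.208, and 0.0373 with the block). Of the 5 measured carboxylate and shuttle carriers, 3 fell by 72 h of hypoxia and 0 rose, against 13.4% and 11.3% of all genes.

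Among carriers of amino acids and carnitine, 4 of 7 fell in hypoxia at 48 h (7.13% of all genes were called lower). At 72 h 4 fell and 1 rose, against 13.4% lower and 11.3% higher among all genes. SLC25A15, the ornithine carrier of the urea cycle, fell furthest at 72 h. It read 7.87, 8.0, 7.68 and 7.52 in DMSO 72 h cells, against 9.09, 8.85, 8.75 and 8.37 in the control. No array was shared between those ranges, and the fall was 1.00 (SE 0.16, 0.50-fold, adjusted p = 3.16e-05). It was 0.67 (SE 0.16, adjusted p = 0.00484) at 48 h, and from 24 to 72 h 0.65 (SE 0.18, adjusted p = 0.00938). A second probe of SLC25A15 gave -0.88 at 48 h and -1.04 at 72 h (SE 0.16 each). With PP242 at 72 h it read 8.27, 8.35, 8.16 and 8.05, each above all 4 DMSO arrays, a difference of 0.44 (SE 0.16, adjusted p = 0.0956, and 0.00804 with the number block).

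SLC25A44, which carries branched-chain amino acids, was lower with PP242 at 24 h and lower in hypoxia. At 24 h it read 8.25, 8.37, 8.21 and 8.41 with PP242, against 8.81, 8.87 and 8.75 with DMSO (-0.50, SE 0.17, adjusted p = 0.0321). The 48 h DMSO arrays were at 7.80, 8.24, 7.93 and 8.69, the 72 h DMSO arrays at 8.34, 8.38, 8.31 and 8.24, and the control arrays at 9.0, 8.91, 9.09 and 9.51. All 8 DMSO arrays of those times were below the control. The fall from the control was 0.96 (SE 0.16, adjusted p = 8.89e-05) at 48 h and 0.81 (SE 0.16, adjusted p = 0.000278) at 72 h.

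The PP242 call on SLC25A44 at 24 h was lost without DMSO array 1 (adjusted p = 0.0872), 2 (0.108) or 3 (0.0553) or PP242 array 1 (0.0645) or 3 (0.0826). DMSO at 72 h against 24 h gave -0.49 (SE 0.17, adjusted p = 0.0438), a call that was lost without any 1 of the 7 arrays (adjusted p from 0.0618 to 0.14) and with no filter on dim probes (0.0583). The falls from the control at 48 and 72 h kept their calls without any single array.

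SLC25A20 exchanges acylcarnitine for carnitine and so admits fatty acids for oxidation. It read 6.57, 6.43, 6.25 and 6.50 with PP242 at 48 h, 5.69, 6.14, 5.91 and 6.15 with DMSO at 48 h and 6.56, 6.68, 6.62 and 6.46 in the control. The 72 h arrays read 6.47, 6.33, 6.29 and 6.61 with PP242, against 5.85, 6.08, 5.91 and 6.03 with DMSO. At both times the DMSO arrays were the lowest, below all PP242 and all control arrays. SLC25A20 fell in hypoxia by 0.60 (SE 0.13, adjusted p = 0.00138) at 48 h and 0.61 (SE 0.13, adjusted p = 0.000603) at 72 h against the control, and rose with PP242 against DMSO by 0.47 (SE 0.13, adjusted p = 0.0161) and 0.45 (SE 0.13, adjusted p = 0.0211). Both sets of comparisons share the DMSO arrays.

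The rises of SLC25A20 with PP242 were the less stable of these. That at 48 h was lost without DMSO array 1 (adjusted p = 0.0852) or PP242 array 1 (0.0621), and that at 72 h without DMSO array 1 (0.073) or 3 (0.0576) or PP242 array 1 (0.052) or 4 (0.086). With one median per array the adjusted p was 0.107 at 48 h and 0.111 at 72 h, and with all kept probes of the gene averaged it was 0.24 and 0.132. At 48 h it was 0.0765 with only the 2 groups. That averaging also took the hypoxia call at 48 h (0.0714). DMSO at 72 h was lower than at 24 h by 0.49 (SE 0.14, adjusted p = 0.0129), but not without DMSO 24 h array 2 (0.128).

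SLC25A29, a carrier of basic amino acids, fell in hypoxia. It read 5.41, 5.48, 5.47 and 5.67 at 48 h with DMSO and 5.39, 5.69, 5.55 and 5.94 at 72 h with DMSO, against 5.97, 6.18, 6.28 and 6.42 in the control. No DMSO array of either time reached the control range, with a fall of 0.70 (SE 0.18, adjusted p = 0.00878) at 48 h and 0.57 (SE 0.18, adjusted p = 0.0213) at 72 h. A second probe gave -0.66 and -0.47 (SE 0.18 each). The 72 h call was lost without control array 3 (0.0517) or 4 (0.0637) or DMSO array 1 (0.0817) or 3 (0.0559), and with the authors' deposited table (0.0502). With PP242 at 48 h SLC25A29 differed from DMSO by 0.50 (SE 0.18, adjusted p = 0.0856, and 0.00609 with the number block).

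SLC25A38, which brings glycine into mitochondria for haem synthesis, was the amino acid carrier that rose. At 72 h it read 6.42, 6.49, 6.68 and 6.74 with PP242, 7.47, 7.72, 7.58 and 7.24 with DMSO and 6.52, 6.31, 6.50 and 7.31 in the control. The DMSO arrays were above all PP242 arrays and above all control arrays but number 4, which overlapped them. The rise in hypoxia was 0.84 (SE 0.18, 1.79-fold, adjusted p = 0.000926), and PP242 lowered it by 0.92 against DMSO (SE 0.18, 0.53-fold, adjusted p = 0.00111). At 24 h the change with PP242 was 0.49 (SE 0.20, adjusted p = 0.0774, and 0.0497 with the number block), and DMSO at 72 h was 0.86 above DMSO at 24 h (SE 0.20, adjusted p = 0.00276). The glutamate carriers SLC25A22, with changes from -0.16 to 0.28, and SLC25A18, above background on 5 of the 27 arrays, were not called with PP242 or in hypoxia.

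**Figure D2:**
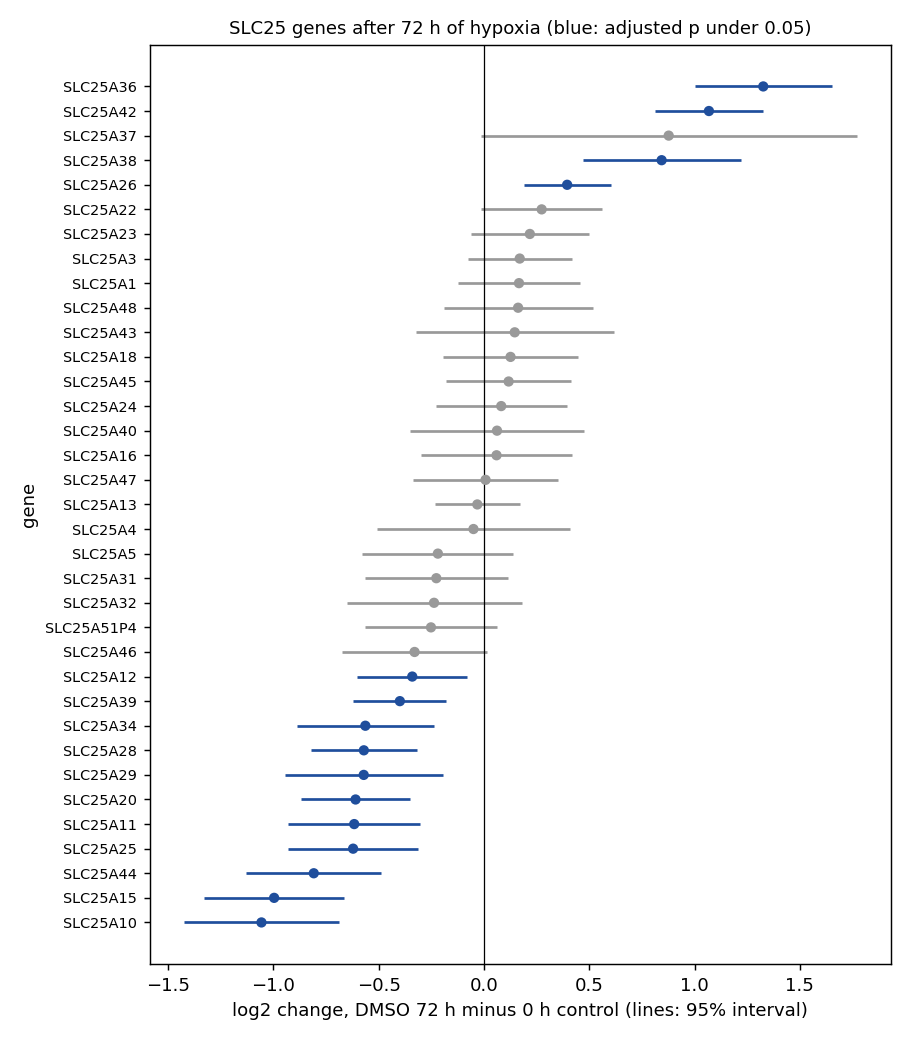
Log2 change of each tested SLC25 gene in DMSO cells after 72 h of hypoxia against the 0 h control, with its 95% interval. Blue marks an adjusted p under 0.05. The 4 rises are SLC25A36, SLC25A42, SLC25A38 and SLC25A26, and SLC25A37 (0.88) has the widest interval.

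The carriers of cofactors, nucleotides and metals held 3 of the 4 rises at 72 h of hypoxia (3 up and 2 down of 9, against 11.3% up and 13.4% down among all genes). SLC25A42, which brings coenzyme A into mitochondria, rose in hypoxia with DMSO and was lower with PP242 at 48 and 72 h. At 48 h it read 6.65, 7.0, 6.95 and 6.77 with PP242, against 7.63, 7.49, 7.75 and 7.26 with DMSO. The 72 h arrays read 6.84, 6.85, 6.68 and 6.72 with PP242, 7.93, 7.78, 7.95 and 7.58 with DMSO and 6.71, 6.66, 6.93 and 6.66 in the control. The DMSO arrays stood above all others, and the PP242 arrays lay within the control range at 72 h.

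SLC25A42 rose by 0.79 (SE 0.12, 1.73-fold, adjusted p = 5.28e-05) at 48 h and 1.07 (SE 0.12, 2.10-fold, adjusted p = 2.47e-07) at 72 h of hypoxia against the control. From 24 to 72 h with DMSO it rose by 1.20 (SE 0.13, adjusted p = 6.58e-07). PP242 lowered it against DMSO by 0.69 (SE 0.12, 0.62-fold, adjusted p = 0.000400) at 48 h and 1.04 (SE 0.12, 0.49-fold, adjusted p = 1.58e-06) at 72 h. At 24 h the arrays read 6.75, 7.15, 6.90 and 6.84 with PP242, against 6.46, 6.65 and 6.70 with DMSO, a difference of 0.30 the other way (SE 0.13, adjusted p = 0.112, and 0.0265 with the number block). Every call on SLC25A42 held without any single array and under each other processing tried.

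SLC25A36 carries pyrimidine nucleotides, from which mitochondria make RNA and DNA, and it had the largest rise of any called member in hypoxia. At 72 h it read 9.29, 9.60, 9.21 and 9.56 with DMSO, against 8.33, 8.33, 8.10 and 7.59 in the control. The groups were far apart, a rise of 1.33 (SE 0.16, 2.51-fold, adjusted p = 3.78e-07), after one of 1.07 (SE 0.16, adjusted p = 2.60e-05) at 48 h. At 24 h the difference was 0.64 (SE 0.17, adjusted p = 0.0694, and 0.0375 with the number block), and without control array 1 or 2 it was the 1 member called.

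With PP242 at 24 h SLC25A36 read 9.13, 9.14, 9.58 and 9.42, against 8.56, 8.72 and 8.90 with DMSO. The PP242 arrays were all higher (0.59, SE 0.17, adjusted p = 0.0130), but the call was lost without DMSO array 1 (0.0821) or PP242 array 3 (0.0551), and with one median per array (0.413). That scaling also took the call of DMSO at 72 h against 24 h (0.69, SE 0.17, adjusted p = 0.00545, and 0.225 with that scaling). At 72 h PP242 gave -0.37 (SE 0.16, adjusted p = 0.165).

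SLC25A26, the carrier of S-adenosylmethionine for methylation in mitochondria, had smaller differences. The 72 h arrays read 7.41, 7.30, 7.33 and 7.39 with PP242, 7.70, 7.70, 7.67 and 7.65 with DMSO and 7.24, 7.28, 7.35 and 7.28 in the control. The DMSO arrays were above both other groups, with 0.40 (SE 0.10, adjusted p = 0.00392) against the control and -0.33 (SE 0.10, adjusted p = 0.0391) for PP242 against DMSO. At 48 h the rise with DMSO was 0.38 (SE 0.10, adjusted p = 0.00939), and 0.0567 was its adjusted p without DMSO array 2. The PP242 call was lost without any 1 of the 8 arrays (adjusted p from 0.0563 to 0.0925). With all kept probes averaged, the adjusted p was 0.152 in hypoxia at 72 h, 0.14 at 48 h and 0.423 for PP242, and a second probe gave 0.07 (SE 0.17), 0.14 (SE 0.17) and -0.03 (SE 0.17). One median per array also took all 3 calls (0.198, 0.159 and 0.0713), and only the 2 groups took those at 48 h (0.129) and with PP242 (0.119), as did no filter for PP242 (0.0694).

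SLC25A28 and SLC25A39 were the falls of this group. SLC25A28, mitoferrin 2, which imports iron, read 7.82, 7.81, 7.62 and 7.70 with PP242 at 24 h, against 8.36, 8.17 and 8.30 with DMSO (-0.54, SE 0.13, adjusted p = 0.00367). At 72 h of hypoxia it read 7.86, 7.83, 7.99 and 7.71 with DMSO, against 8.78, 8.33, 8.16 and 8.40 in the control (-0.57, SE 0.12, adjusted p = 0.000888). Neither pair of groups overlapped, and the fall at 48 h was alike (0.58, SE 0.12, adjusted p = 0.00149). DMSO at 72 h was lower than at 24 h by 0.43 (SE 0.13, adjusted p = 0.0253), but not without DMSO 24 h array 1 (0.108) or 3 (0.0699) or DMSO 72 h array 2 (0.0516) or 4 (0.0741).

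SLC25A39, which imports glutathione, read 11.52, 11.71, 11.43 and 11.32 with PP242 at 24 h, against 11.91, 11.99 and 11.94 with DMSO. It read 11.47, 11.49, 11.60 and 11.34 in DMSO 72 h cells, against 11.84, 11.86, 11.77 and 12.03 in the control. The lower groups did not reach the upper ones, with falls of 0.45 (SE 0.12, adjusted p = 0.00552) and 0.40 (SE 0.11, adjusted p = 0.00648). DMSO at 72 h was lower than DMSO at 24 h by 0.47 (SE 0.12, adjusted p = 0.00491). Its paralog SLC25A40 was not called in any comparison, with changes from -0.43 to 0.19.

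SLC25A37, mitoferrin 1, had large differences with a large spread. At 24 h it read 8.73, 8.70, 9.51 and 9.76 with PP242, against 7.43, 7.92 and 8.61 with DMSO. At 72 h the DMSO arrays read 8.90, 8.99, 9.38 and 9.77, against 7.83, 7.50, 8.41 and 9.80 in the control. In every group arrays 3 and 4, where present, were above arrays 1 and 2. The change with PP242 at 24 h was 1.19 (SE 0.47, adjusted p = 0.0724), and with the number block 0.92 (adjusted p = 0.000595). DMSO at 72 h differed from DMSO at 24 h by 1.27 (SE 0.47, adjusted p = 0.0637), and with the block by 1.01 (adjusted p = 0.000293). SLC25A16 had changes between -0.18 and 0.18, and SLC25A32, the carrier of folate or FAD, was above background on 6 of the 27 arrays. Neither was called.

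**Figure D3:**
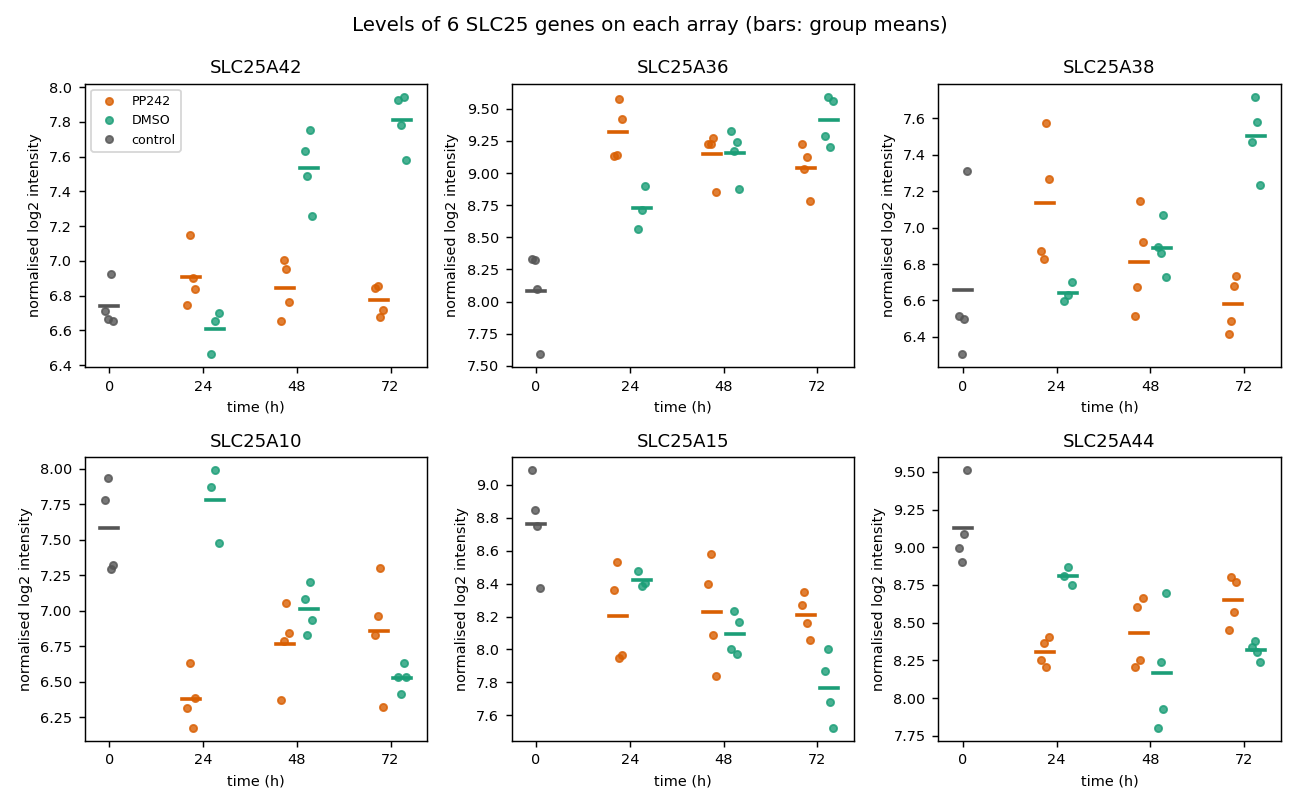
Normalised log2 intensity of 6 SLC25 genes on each array by time in h, with bars for group means (PP242 left, DMSO right, control at 0 h). In SLC25A42 and SLC25A38 the DMSO arrays at 72 h stand above the PP242 arrays, and in SLC25A10 the PP242 arrays at 24 h stand below the DMSO arrays.

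Of the 7 carriers of adenine nucleotides and phosphate, 1 was called lower with PP242 at 24 h (11.4% of all genes were). The count was also 1 with DMSO against the control at 48 h (7.13% of all genes) and at 72 h (13.4%). So small a count does not set this class apart from all genes. SLC25A25, a calcium-regulated ATP-Mg/phosphate carrier, read 7.91, 8.19, 8.04 and 8.17 with PP242 at 24 h, against 8.48, 8.60 and 8.62 with DMSO (-0.49, SE 0.16, adjusted p = 0.0302). In hypoxia it read 8.12, 8.05, 8.29 and 8.63 at 72 h with DMSO, against 8.95, 8.69, 8.82 and 9.12 in the control (-0.62, SE 0.15, adjusted p = 0.00270). The groups did not overlap in either, and at 48 h the change was -0.64 (SE 0.15, adjusted p = 0.00413). The PP242 call was lost without DMSO array 1 (0.055), 2 (0.0969) or 3 (0.0853) or PP242 array 1 (0.0823) or 3 (0.0668). With all kept probes averaged the hypoxia calls had adjusted p of 0.0707 at 48 h and 0.113 at 72 h, and a second, dimmer probe gave -0.10 and 0.02 (SE 0.17 each).

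SLC25A4 and SLC25A5, the ADP/ATP exchangers through which mitochondrial ATP leaves, were not called. At 24 h SLC25A4 read 10.67, 10.76, 10.30 and 10.07 with PP242, against 11.33, 11.01 and 10.94 with DMSO, arrays that did not overlap (-0.65, SE 0.24, adjusted p = 0.0563, and 0.00739 with the number block). SLC25A5 differed by -0.43 (SE 0.19, adjusted p = 0.107, and 0.0384 with the block). SLC25A3, which brings in phosphate for ATP synthesis, differed with PP242 at 72 h by -0.29 (SE 0.12, adjusted p = 0.145, and 0.0403 with the block). In hypoxia at 72 h against the control the values were -0.05 for SLC25A4 (95% interval -0.51 to 0.41), -0.22 for SLC25A5 (-0.58 to 0.14) and 0.17 for SLC25A3 (-0.08 to 0.42). The ATP-Mg/phosphate carriers SLC25A23 and SLC25A24 had changes from -0.05 to 0.27 and from -0.28 to 0.11, and the ADP/ATP carrier SLC25A31 was above background on 5 of the 27 arrays. These were not called.

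Of the 6 members with another or an unsettled substrate, SLC25A34 was called between 2 groups. So small a count does not set this class apart from all genes. At 48 h it read 5.01, 5.45, 5.60 and 5.39 with PP242, 4.59, 4.93, 4.97 and 4.87 with DMSO and 5.23, 5.34, 5.55 and 5.44 in the control, and the DMSO arrays were the lowest. It was not above background on any of the 4 DMSO arrays at 48 h or the 4 at 72 h, nor on every PP242 or control array. No size of change was therefore measured. It was called higher with PP242 than with DMSO at 48 h (adjusted p = 0.0323) and at 72 h (adjusted p = 0.0361). With DMSO it was called lower than in the control at 48 h (adjusted p = 0.0180) and at 72 h (adjusted p = 0.00869). PP242 arrays were above background in 3 of 4 cases at 48 h and 2 of 4 at 72 h, and control arrays in 3 of 4. SLC25A34 thus passed the filter through groups where it was high, so these p-values are no support for a difference.

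These calls on SLC25A34 rested on few arrays. With PP242 at 48 h the call was lost without DMSO array 1 (0.122) or 4 (0.0528) or PP242 array 2 (0.069), 3 (0.114) or 4 (0.0697), and with only the 2 groups (0.0628). At 72 h it was lost without DMSO array 2 (0.183) or PP242 array 1 (0.0793) or 4 (0.144), with only the 2 groups (0.0849), with the larger normexp offset (0.0549) and with the authors' deposited table (0.0566). In hypoxia it was lost at 48 h without control array 3 (0.0621) or DMSO array 1 (0.0839), and at 72 h without DMSO array 2 (0.0596).

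SLC25A43 differed with PP242 at 24 h by 0.60 (SE 0.25, adjusted p = 0.0832, and 0.000138 with the number block). SLC25A46, an outer membrane protein of mitochondrial dynamics, had changes between -0.37 and 0.05. SLC25A47 was above background on 5 of the 27 arrays, 3 of them with PP242 at 72 h, and passed the filter through that group. Its adjusted p over the 7 groups (0.00518) is therefore no support for a difference, and no size was measured. SLC25A45 and SLC25A48 were above background on 4 and 8 arrays and were not called. The pseudogene SLC25A51P4 had changes between -0.40 and 0.27.

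Within hypoxia, DMSO at 72 h against 24 h called 9 members (25.7%, against 16.7% of all genes), of which 3 were higher (7.86% of all genes) and 6 lower (8.8%), and 2 higher and 9 lower with arrays scaled to one median. The 3 rises were SLC25A42, SLC25A38 and SLC25A36, and the 6 falls SLC25A10, SLC25A15, SLC25A20, SLC25A44, SLC25A39 and SLC25A28, with the values above. With the number block SLC25A5 (-0.38, adjusted p = 0.0173), SLC25A25 (-0.37, adjusted p = 0.0317) and SLC25A37 were called as well, 12 members in all (34.3%, against 25.4% of all genes).

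The effect of PP242 changed between times for several carriers. The effect at 72 h minus that at 24 h passed for 11 members (31.4%, against 15.3% of all genes), of which 6 were higher (7.61% of all genes) and 5 lower (7.71%), with 6 higher and 2 lower under one median per array and 17 with the number block (48.6%, against 24.9%). In all 11 the effect had opposite signs at the 2 times, and 6 of them were called at 24 h alone, 4 at 72 h alone and 1, SLC25A18, at neither. SLC25A18, which is counted among the 11, was mostly below background, as given further on. Over the 35 members, 21 had opposite signs. Picking genes by the difference between the 2 effects favours opposite signs. The share with opposite signs among all genes was not counted, so these signs show nothing particular to the members. The difference at 48 h minus 24 h passed for 4 members (11.4%, against 5.11%), of which 3 were higher (2.7% of all genes) and 1 lower (2.4%), and for 8 with the block (22.9%, against 12%).

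SLC25A10, lower with PP242 at 24 h alone, had the largest shift, 1.73 (SE 0.27, adjusted p = 3.04e-05) between 24 and 72 h and 1.16 (SE 0.27, adjusted p = 0.00996) between 24 and 48 h. The shifts up of SLC25A44 (0.84, SE 0.23, adjusted p = 0.0123), SLC25A28 (0.67, SE 0.18, adjusted p = 0.0110) and SLC25A39 (0.58, SE 0.16, adjusted p = 0.0117) were likewise those of genes lower with PP242 at 24 h. SLC25A25 shifted by 0.72 (SE 0.22, adjusted p = 0.0271). In the opposite direction went SLC25A38 (-1.41, SE 0.27, adjusted p = 0.000422), SLC25A42 (-1.34, SE 0.18, adjusted p = 7.56e-06), SLC25A36 (-0.96, SE 0.23, adjusted p = 0.00437) and SLC25A26 (-0.52, SE 0.15, adjusted p = 0.0145).

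The shifts of SLC25A20 (0.56, SE 0.19, adjusted p = 0.0410) and SLC25A18 (adjusted p = 0.0407) were less stable. SLC25A18 was above background on 2 of 4 arrays with PP242 and 0 of 3 with DMSO at 24 h, and on 0 of 4 with PP242 and 2 of 4 with DMSO at 72 h. It passed the filter through groups where it was high, so its p is no support for a shift, and no size was measured. That of SLC25A20 was lost without any 1 of 9 of the 15 arrays (adjusted p from 0.0553 to 0.164), namely DMSO 24 h arrays 1 and 2, PP242 24 h arrays 2, 3 and 4, DMSO 72 h arrays 1 and 3 and PP242 72 h arrays 1 and 4. That of SLC25A18 was lost without any 1 of 8 (0.064 to 0.114), namely DMSO 24 h arrays 1 and 3, PP242 24 h arrays 2 and 3, DMSO 72 h arrays 2 and 4 and PP242 72 h arrays 2 and 3. That of SLC25A25 was lost without DMSO 24 h array 2 (0.0643) or 3 (0.0571), PP242 24 h array 1 (0.0566), DMSO 72 h array 1 (0.0558) or 2 (0.0613) or PP242 72 h array 4 (0.0572). Between 24 and 48 h SLC25A42 shifted by -0.99 (SE 0.18, adjusted p = 0.00213). SLC25A44 (0.77, adjusted p = 0.0494) and SLC25A28 (0.64, adjusted p = 0.0350) shifted too. The call on SLC25A44 held only without PP242 48 h array 1 or 3 or DMSO 48 h array 4 (up to 0.124 without another), and that on SLC25A28 only without PP242 24 h array 1 or 2, DMSO 48 h array 4 or PP242 48 h array 1 (up to 0.104 without another).

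Some of these shifts also depended on the processing. With one median per array the adjusted p at 72 against 24 h was 0.239 for SLC25A26, 0.12 for SLC25A36, 0.0671 for SLC25A20 and 0.0543 for SLC25A18. With all kept probes averaged it was 0.0656 for SLC25A26, 0.0966 for SLC25A25 and 0.0888 for SLC25A20. With no filter on dim probes it was 0.0605 for SLC25A20 and 0.0541 for SLC25A18, and the shifts at 48 against 24 h had 0.0522 for SLC25A28 and 0.0661 for SLC25A44. That of SLC25A18 also had 0.06 with the larger offset and 0.0649 with the authors' deposited table, and that of SLC25A20 had 0.0551 with only the 4 groups compared. The 48 h shift of SLC25A44 had 0.0511 with an intensity trend and 0.08 with only the 4 groups. Those of SLC25A10, SLC25A38, SLC25A42, SLC25A28, SLC25A39 and SLC25A44 between 24 and 72 h kept their calls under each other processing tried. Each of these genes had 1 kept probe, so averaging probes was no separate check for them.

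**Figure D4:**
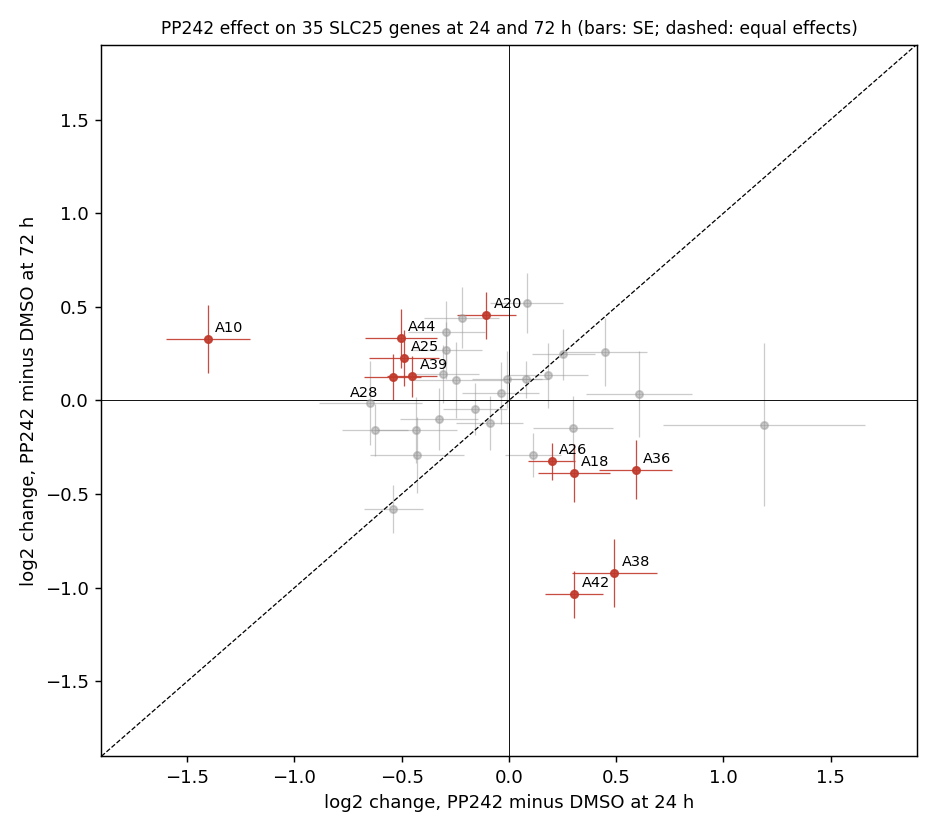
Log2 change with PP242 against DMSO at 72 h (vertical) by that at 24 h (horizontal) for 35 SLC25 genes, with SE bars and a dashed line of equal effects. Red marks the 11 genes called for a difference between the times, SLC25A18 (mostly below background) among them. All 11 lie in the quadrants of opposite sign, which picking genes by that difference favours.

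Other genes of mitochondrial transport are given from lists written from textbook knowledge. Of 5 SLC25 relatives under other symbols, UCP2, an uncoupling protein, was called: it fell in hypoxia by 0.71 (SE 0.15, adjusted p = 0.00139) at 48 h and 1.12 (SE 0.15, adjusted p = 2.26e-06) at 72 h, to 5.90 with DMSO at 72 h against 7.02 in the control. Among all genes 7.13% were called lower at 48 h and 13.4% at 72 h. Of 15 measured carriers and channels of other families, 0 rose and 7 fell with PP242 at 24 h (median -0.28, against 0.0024 for all genes, of which 10.4% were higher and 11.4% lower). Among them MPC1, a subunit of the pyruvate carrier, fell by 0.90 (SE 0.17, adjusted p = 0.000201) and MCU, the calcium uniporter pore, by 0.54 (SE 0.12, adjusted p = 0.00136). In hypoxia at 72 h 0 of the 15 rose and 4 fell (median -0.26, against -0.0098 for all genes, with 11.3% higher and 13.4% lower), with LETM1, a cation exchanger, at -0.81 (SE 0.13, adjusted p = 2.53e-05).

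Carriers reach the inner membrane through the TIM22 import route, and of 20 measured import genes 1 rose and 6 fell with PP242 at 24 h (median -0.27), against 10.4% higher and 11.4% lower among all genes. The small chaperone TIMM9 rose by 0.84 (SE 0.14, adjusted p = 5.62e-05), while TIMM23, the channel of the presequence route, fell by 0.82 (SE 0.14, adjusted p = 8.11e-05). At 72 h of hypoxia 2 rose and 7 fell (median -0.12), against 11.3% and 13.4% of all genes, TIMM9 by 1.02 (SE 0.13, adjusted p = 8.58e-07) upwards and its partner chaperone TIMM10 by -0.96 (SE 0.12, adjusted p = 4.22e-07).

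Of 20 measured enzymes that work on carrier substrates, 0 rose and 4 fell with PP242 at 24 h (median -0.15), where 10.4% of all genes were higher and 11.4% lower. At 72 h 0 rose and 4 fell (median -0.15, against -0.0028 for all genes, with 3.41% higher and 5.5% lower). ARG2, the mitochondrial arginase that makes ornithine, fell by 1.30 (SE 0.19, adjusted p = 3.42e-05) with PP242 at 72 h. GOT1, the cytosolic aminotransferase of the malate-aspartate shuttle, fell by 0.69 (SE 0.13, adjusted p = 0.000158) at 24 h. SHMT2, which makes glycine and one-carbon units from serine in mitochondria, fell by 0.98 (SE 0.14, adjusted p = 2.4e-05) with PP242 at 72 h. In hypoxia at 72 h 2 rose and 4 fell (median 0.02, against -0.0098), near the 11.3% and 13.4% of all genes, and SHMT2 rose by 1.38 (SE 0.14, adjusted p = 3.64e-08). GOT2, the mitochondrial aminotransferase of the shuttle, was among the falls (-0.82, SE 0.13, adjusted p = 2.36e-05), as was ACLY, which splits citrate in the cytosol (-0.66, SE 0.12, adjusted p = 0.000114).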

How the data were processed

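The deposited non-normalised table gives the signal intensity of 48107 probes on 27 arrays, as whole numbers on a linear scale. For 27367 of them the authors deposited a second table, of intensity with a median of 109.561 in every column, within 2.08% of a quantile normalisation of the same probes computed here, and was used as an alternative. Neither the array software nor a genome build is given in the sources used here. The annotation pairs 23495 of the 27367 probes with a single symbol, 1 with several and 3871 with none, and updating changed 0 symbols. There were 0 unmapped columns of sample values, and 0 arrays were identical.

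Intensities were corrected by normexp (offset 16), log2 transformed and quantile normalised. The plan assumed detection p-values. As these tables hold none, background was taken as the mode of each array's signals (density bandwidth 1.5) with the SD mirrored from below it. Background modes lay between 92.4 and 106 and SDs between 4.77 and 6.06. This p had to be under 0.05 on 3 arrays or more, which left 31212 probes, and the brightest per gene was used (12610 genes). The number of arrays limits the precision.

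One linear model over the 7 groups was fitted with limma 3.58.1 in R 4.3.3 (20 residual degrees of freedom), adjusted by Benjamini-Hochberg over all genes at 0.05, and tested on simulated data. Any member called in a comparison could be named, with values on every array for up to 5 rises and 5 falls of largest change, and up to 3 genes of smallest p per list. Further members given by array, such as SLC25A4 and SLC25A37, were chosen after their values were seen. Members, lists and tests were chosen with earlier results of these data known. Roles come from textbook knowledge. One promoter sequence is not reported here.

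Sample numbers 1 to 4 recur across groups. The deviations of same-number arrays from their group means correlated across genes with a lowest r between 0.126 and 0.209 in 6 of the 7 comparisons, so the number was taken to pair them there. For DMSO 72 h against the control the lowest r was 0.0993, under the bound of 0.1. No DMSO 24 h array carries the number 4. The main fit did not use the number. Calls, SEs and p-values are without this pairing unless the block is named. Alternatives were a normexp offset of 50, one median per array, the value table, no filter, a filter at 14 arrays, averaged probes, an intensity trend, only the groups compared, the number as a block and each array left out.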

Additional observations from a re-analysis of the deposited data

Results flagged for a closer look

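The PP242 effect, as a log2 change against DMSO, differed between times for several carriers by the limma test of that difference. At 48 h minus 24 h the values were 1.156 for SLC25A10, 0.6428 for SLC25A28, -0.9921 for SLC25A42 and 0.7686 for SLC25A44. At 72 h minus 24 h they were positive for 6 members: 1.731 for SLC25A10, 0.8361 for SLC25A44, 0.7176 for SLC25A25, 0.6667 for SLC25A28, 0.5797 for SLC25A39 and 0.5596 for SLC25A20. They were negative for 5: -1.412 for SLC25A38, -1.34 for SLC25A42, -0.9612 for SLC25A36, -0.5238 for SLC25A26 and -0.6888 for SLC25A18. The last is neither a measured size nor support for a shift, since SLC25A18 was above background on 0 of 3 DMSO 24 h and 0 of 4 PP242 72 h arrays.

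In 10 of 210 sets of 4 arrays, 1 array stood apart from its 3 companions by Dixon's test, which chance alone gives in about 1 of 20 sets. With PP242 at 24 h, SLC25A13 read 9.71 on array 3 (others 9.88 to 9.891), and on array 2 SLC25A22 read 8.171 (others 7.68 to 7.729) and SLC25A45 4.885 (others 5.118 to 5.15). With PP242 at 48 h, SLC25A1 read 6.459 on array 1 (others 7.009 to 7.115) and SLC25A36 8.853 on array 4 (others 9.226 to 9.276). With DMSO, SLC25A25 read 8.647 on array 4 at 48 h (others 8.074 to 8.166) and SLC25A34 4.385 on array 2 at 72 h (others 4.955 to 5.006). In the control, SLC25A32 read 4.757 on array 1 (others 5.295 to 5.397), and on array 4 SLC25A5 read 12.81 (others 13.46 to 13.54) and SLC25A13 9.778 (others 9.566 to 9.585).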

How the results depend on the processing

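No called value of a member changed direction. Recomputing the 69 called values under the alternatives gave 1325 results, each 1 value in 1 setting. They include a setting chosen after seeing the data, named below. Of these results 1162 kept the call and 163 did not, and 39 of the 69 values kept it in every planned setting. Counts moved in the following settings, given here without the share of all genes in each. With only the groups compared, PP242 against DMSO called 13 members at 24 h and 2 at 48 h. With the sample number as a replicate block, 15 were called with PP242 at 24 h, 1 for DMSO 24 h against the control, 8 for the PP242 effect at 48 h minus 24 h and 17 at 72 h minus 24 h. With no filter the 48 h minus 24 h count was 2. For DMSO 72 h against the control, where r ran from 0.0993 to 0.435 and so just missed the bound of 0.1, the block gave 17 in place of 15. The 2 added were SLC25A37 and SLC25A46. One median per array with the block, chosen after seeing the data, gave 14 for DMSO 72 h against 24 h. Among the 69 calls the block lost 0. Leaving out each array in turn, the counts ran from 5 to 11, 3 to 5 and 3 to 6 for PP242 at 24, 48 and 72 h, from 0 to 1, 9 to 12 and 13 to 15 for DMSO against the control, from 7 to 8 for DMSO 72 h against 24 h, from 2 to 6 and 9 to 11 for the PP242 effect at 48 h and 72 h minus 24 h, and from 16 to 20 over the 7 groups. The cause of these moves was not tested. Of the 44 members 9 were too close to background to test, which says nothing about their change.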
